A study of Homo sapiens with 6 samples.

Results

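The genes described here encode basement membrane components: the proteoglycan core proteins perlecan (HSPG2) and agrin (AGRN), collagen XVIII (COL18A1), the laminin chains LAMA5, LAMB1, LAMB2 and LAMC1, nidogen 1 (NID1) and the type IV collagen chains COL4A1 and COL4A2. They are 10 of the 19879 protein-coding genes placed on GRCh38. The genes had been chosen by name with earlier results of these peak lists in view, so the number, place, fold and score of their peaks are given as a description, with no test. A member's peaks were the MeTDiff peaks lying wholly inside its RefSeq gene span on either strand, which gave 81 of 18431 peaks, and the MACS2 summits inside that span, which gave 66 of 6264 summits.

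The study mapped N1-methylguanosine (m1G), a guanosine methylated on its Watson-Crick face, in messenger RNA of PANC-1, a human cell line established from a pancreatic ductal adenocarcinoma. PolyA+ RNA was broken into short fragments, and those bound by an antibody to m1G were sequenced beside unprecipitated input. The 6 libraries were 1 input and 2 precipitates of the WT control, and 1 input and 2 precipitates of TRMT5 KD cells, reverse transfected with siRNA and depleted of the tRNA methyltransferase TRMT5 for 4 days. All were of 1 cell line and labelled experiment 1. The labels name no batch and do not say whether replicates came from separate cultures. Neither peak list marks a condition or a library, so control and knockdown were not compared here, and no value has a replicate error. The fold, the false discovery rate (FDR) and the score of each peak are the authors' own values. The lists hold no read counts, so depth is unknown, and a peak needs an expressed transcript: the parts played by mRNA level and mRNA length in the counts below were not tested. In bulk RNA, fewer cells with a transcript and less of it per cell cannot be told apart.

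A basement membrane is a thin sheet of extracellular matrix under epithelia and around vessels. Laminins are trimers of an alpha, a beta and a gamma chain and polymerise on the cell surface, type IV collagen forms a second network, and nidogen and perlecan tie the networks together. Perlecan, agrin and collagen XVIII carry heparan sulfate chains, which bind growth factors. In pancreatic adenocarcinoma the sheet is breached by invading cells, and the tumour cells make part of this matrix themselves.

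Peaks were found in 9 of the 10 genes by MeTDiff and in 7 by MACS2, and all 7 were among the 9. Of all protein-coding genes, 37.5% held a MeTDiff peak, 18.1% a MACS2 summit and 17.0% both. The peaks were unevenly spread over the 10 genes. HSPG2, AGRN, COL18A1, LAMA5 and LAMB2 held 8 or more MeTDiff peaks each, a number reached by 1.48% of protein-coding genes, whereas LAMC1 held 3, LAMB1, NID1 and COL4A2 held 1 each and COL4A1 held 0. By summits the order differed: LAMA5 had 19, COL18A1 18, AGRN 15, LAMB2 6, HSPG2 4, LAMC1 3 and LAMB1 1, while NID1, COL4A1 and COL4A2 had 0.

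**Figure D1:**
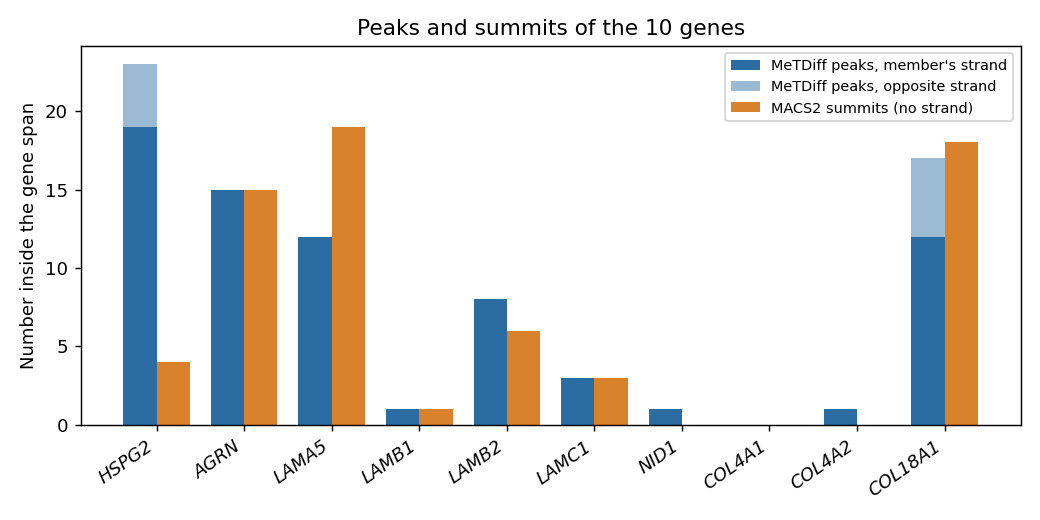
Number of MeTDiff peaks wholly inside the span of each gene, on the gene's own strand (dark) and on the opposite strand (light), and number of MACS2 summits, which carry no strand. HSPG2 had 23 peaks and 4 summits, while LAMA5 had 12 peaks and 19 summits.

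Taken over all 10 genes, the median enrichment was near that of the whole list, while LAMA5 and LAMC1 had medians of 11.6 (12 peaks) and 19.6 (3 peaks). The median fold of the 81 peaks was 4.27, with quartiles of 2.88 and 8.29, against a median of 4.24 and quartiles of 2.75 and 6.91 over all peaks. Peaks of at least 10-fold numbered 16 of 81 (19.8%), against 12.7% of the list, and 9 of those 16 were in LAMA5 and LAMC1. The median score of the 66 summits was 22.1, against 16.4 over all summits, and 9 had a score of 50 or more (13.6%, against 4.10% of the list). Those 9 lay in COL18A1, LAMA5 and LAMC1.

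**Figure D2:**
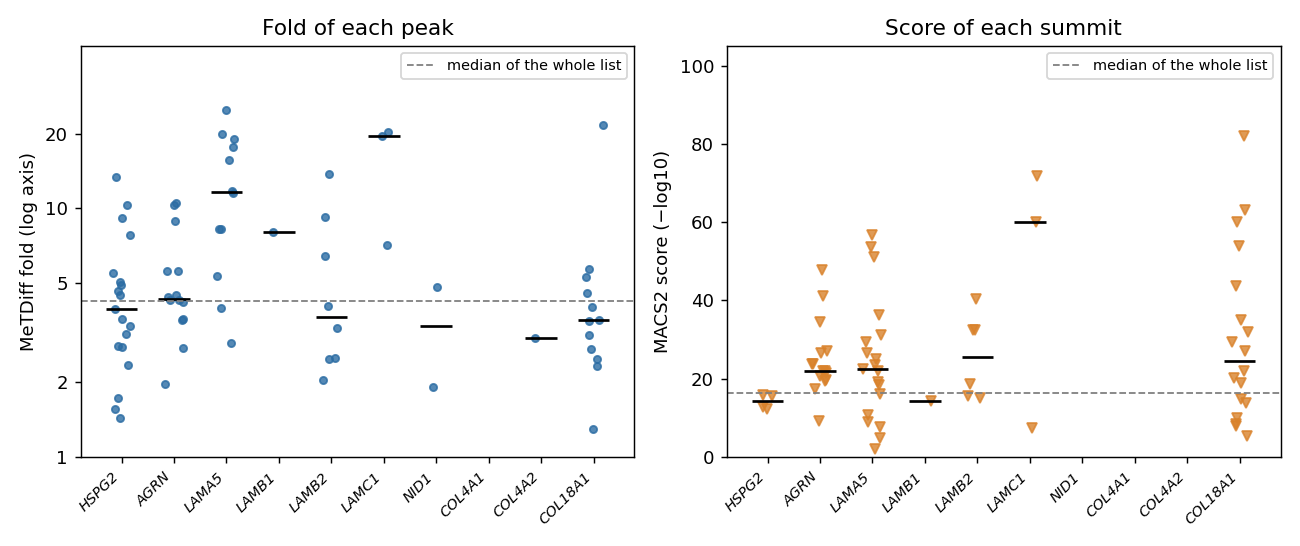
Fold of each MeTDiff peak of the gene's own identifier (left, log axis) and score of each MACS2 summit (right), by gene; black bars are the medians of a gene, dashed lines those of the whole lists (4.24 and 16.4), and NID1 includes its peak that crosses the edge of the span. The medians of LAMA5 and LAMC1, 11.6 and 19.6 (the latter from 3 peaks), stand above the fold median of the list. Those of LAMB1 (8.0, from 1 peak) and AGRN (4.34) are also above it. The 4 summits of HSPG2 and the only summit of LAMB1 lie below the score median.

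Perlecan is a very large proteoglycan that binds laminin, nidogen and growth factors. HSPG2 (chromosome 1, 21822244 to 21937310, minus strand) carried 19 peaks under its own Ensembl identifier, ENSG00000142798, the most of any of the 8386 identifiers in the MeTDiff list. From the 5′ to the 3′ end their folds were 13.4, 1.43, 3.95, 4.93, 1.73, 10.3, 4.67, 3.60, 3.14, 5.5, 2.78, 5.08, 2.35, 4.50, 2.80, 3.38, 1.56, 7.80 and 9.17. Of the 19, 9 were above the list median, and the 4 largest were the first, the sixth and the last pair along the gene. The peak nearest the 5′ end had the largest fold (21890098 to 21895959, 4 blocks, FDR 0.0017), and its midpoint lay 44281 bp into the span. FDR values of the 19 peaks ran from 0.0017 to 0.0263. The 19 include 3 that share bases with peaks of another identifier. Whether HSPG2 would still have the most peaks without these 3 was not counted.

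MACS2 placed 4 summits in HSPG2, with scores of 12.4, 12.9, 15.5 and 15.9 from the 5′ to the 3′ end, all below the list median. The first (21890685) lay inside the 13.4-fold peak, the second (21852980) inside the 10.3-fold peak, and the third (21840083) 66 bp from a block of the 5.50-fold peak. Summits thus lay in the 2 HSPG2 peaks of largest fold. The last summit (21822552) lay inside a peak of the opposite strand only.

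That opposite strand belongs to an identifier, ENSG00000187942, with 4 peaks, all of them inside the spans of both HSPG2 and LDLRAD2, a gene for a membrane protein with LDL receptor class A repeats. The spans of these genes overlap by 2982 bp at their 3′ ends. The 4 peaks had folds of 11.8, 6.80, 2.83 and 2.25, and each shared bases with 1 of 3 HSPG2 peaks, of 9.17, 7.80 and 3.38-fold. FDR values were lower for the LDLRAD2 strand, at 7.76e-05 and 1.91e-04, than for these HSPG2 peaks, at 0.024, 0.00302 and 0.00331. Whether the libraries kept strand is not given in the sources used here, so the signal of these 3 HSPG2 peaks cannot be assigned to either gene.

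Agrin organises the neuromuscular junction and binds laminin and dystroglycan in epithelia. AGRN (chromosome 1, 1020120 to 1056116, plus strand) had 14 peaks of its own identifier and 15 summits. Folds were 3.58, 2.75, 5.61, 8.93, 4.27, 4.41, 4.21, 10.3, 5.59, 10.5, 4.27, 4.50, 3.56 and 1.96 from the 5′ to the 3′ end. After a first peak near the start of the gene, the other 13 stood in close succession from 1041228 to 1055969. The blocks of all 14 covered 5296 bp, 14.7% of the span, the longest covered length of the 10 genes. The largest fold was that of an unspliced peak of 599 bp (1052387 to 1052985, FDR 4.37e-04), and the next, 10.3-fold, joined 4 blocks (1048883 to 1049928, FDR 8.32e-07). Adjacent peaks shared FDR values: 6 of the 14 had 1.86e-05, and the 14 peaks had only 5 different values, so the values are not separate for each peak.

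The summits of AGRN scored 26.5, 9.33, 23.8, 41.2, 27.2, 47.8, 17.4, 19.6, 20.7, 34.6, 19.4, 23.8, 21.6, 22.1 and 22.1 in the same order, and 14 of 15 were above the list median. The highest (1045726) lay 7 bp outside a block of the 8.93-fold peak, which contained 2 further summits, of 41.2 and 27.2. No other gene of the 10 had as many of its summits above the list median. At its 3′ end a further identifier on the same strand, ENSG00000242590, had a peak of 3.63-fold (1055122 to 1055938) that shared bases with the last peak of AGRN and with that at 1055122 to 1055371.

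Collagen XVIII carries heparan sulfate and releases the antiangiogenic fragment endostatin from its C-terminal end. COL18A1 (chromosome 21, 45405165 to 45513720, plus strand) had 12 peaks of its own identifier and 18 summits. Folds were 21.7, 5.69, 3.54, 5.32, 3.09, 3.57, 2.33, 4.57, 2.71, 4.00, 2.47 and 1.30 from the 5′ to the 3′ end. A peak at the start of the gene thus stood far above the rest, of which 3 exceeded the list median of 4.24. Its first 2 blocks and its summit also lie in the span of the long noncoding RNA gene BNAT1 (45403806 to 45406362), which overlaps COL18A1 by 1198 bp, so their signal cannot be assigned to either gene by position alone. The peak at the start had the lowest FDR of the gene, 2.34e-09, and the others shared 4 values from 3.16e-08 to 2.00e-05.

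The scores of COL18A1 gave another order. Its summits scored 35.1, 13.9, 22.0, 60.1, 53.9, 9.95, 29.5, 20.2, 7.86, 43.7, 8.48, 18.8, 31.9, 27.1, 63.2, 81.9, 14.8 and 5.34. The summit of 81.9 (45512198), the highest among the 10 genes, lay inside a peak of 4.00-fold (45511166 to 45512426) near the 3′ end, while the 21.7-fold peak at the start had a summit of 35.1 lying 2 bp outside its first block. A score as high as 81.9 was reached in 29 protein-coding genes, COL18A1 included.

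SLC19A1, the reduced folate carrier gene, overlaps the 3′ end of COL18A1 by 11204 bp. An identifier of the minus strand, ENSG00000173638, had 9 peaks, of which 7 touched the SLC19A1 span, and 5 of the 9 lay inside the COL18A1 span with folds of 1.82, 3.63, 3.28, 3.16 and 1.41. Each of these 5 shared bases with a COL18A1 peak, and 5 of the 12 COL18A1 peaks were touched. The summit of 81.9 was in none of the minus-strand peaks, although the 4.00-fold peak holding it shared bases with 1 of them. That of 5.34 was in peaks of both strands. Summits carry no strand, and 6 of COL18A1, that of 81.9 among them, lay in the SLC19A1 span. By position alone these 6 cannot be assigned to either gene.

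**Figure D3:**
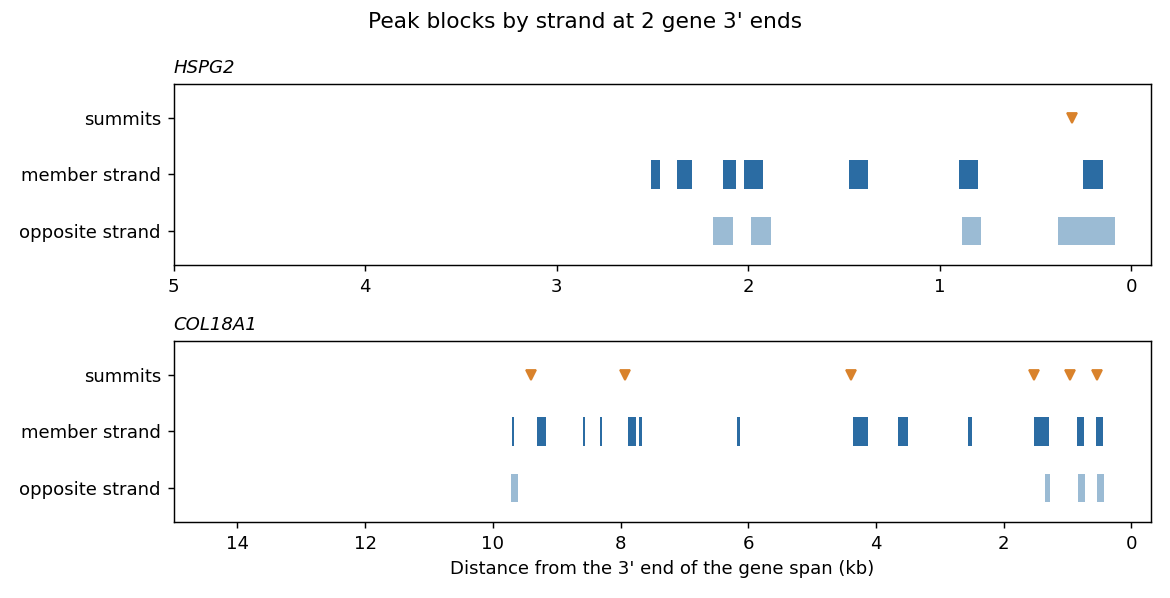
Blocks of MeTDiff peaks by strand and MACS2 summits near the 3′ ends of HSPG2 and COL18A1, by distance from the 3′ end of the gene span in kb (the end is at the right). The 4 opposite-strand peaks of HSPG2 lie over its own blocks, and opposite-strand blocks of COL18A1 lie over blocks of its own strand.

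Among the laminins, LAMA5, the alpha chain most widespread in adult epithelia, held the strongest run of enrichment. LAMA5 (chromosome 20, 62309065 to 62367312, minus strand) had 12 peaks, with folds of 2.88, 15.7, 5.35, 20, 24.8, 19.0, 17.6, 11.5, 8.30, 3.99, 11.7 and 8.29 from the 5′ to the 3′ end. The 4 neighbouring peaks between 62317776 and 62325510 all reached 17.6-fold or more, and 10 of the 12 were above the list median. Its median of 11.6 compares with 3.95 in HSPG2, 4.34 in AGRN and 3.55 in COL18A1. The 24.8-fold peak, the largest fold of the 10 genes, joined 2 blocks at 62322274 to 62322732 with an FDR of 2.69e-07. A fold as large was held by 215 protein-coding genes.

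The 19 summits of LAMA5 were the most in any protein-coding gene span. They scored 19.2, 8.90, 2.15, 7.58, 36.2, 5.00, 25, 22.6, 51.1, 53.6, 16.0, 56.7, 29.5, 31.3, 21.9, 23.4, 26.5, 10.7 and 18.3 from the 5′ to the 3′ end. The 3 highest, at 62322482, 62319852 and 62318688, fell in the stretch of the 3 peaks of 24.8, 19.0 and 17.6-fold, but 33, 57 and 38 bp outside their blocks. The 20-fold peak, second in fold, had as its nearest summit 62325529, with a score of 22.6, the median of the gene. Of the 5 summits farther than 100 bp from any block, the highest scored 25 (62333702), 1533 bp from the nearest block. The others were that of 5.00 (62334164), a pair at 62352391 and 62352545, with scores of 2.15 and 8.90, and a summit of 19.2 at the start of the gene.

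**Figure D4:**
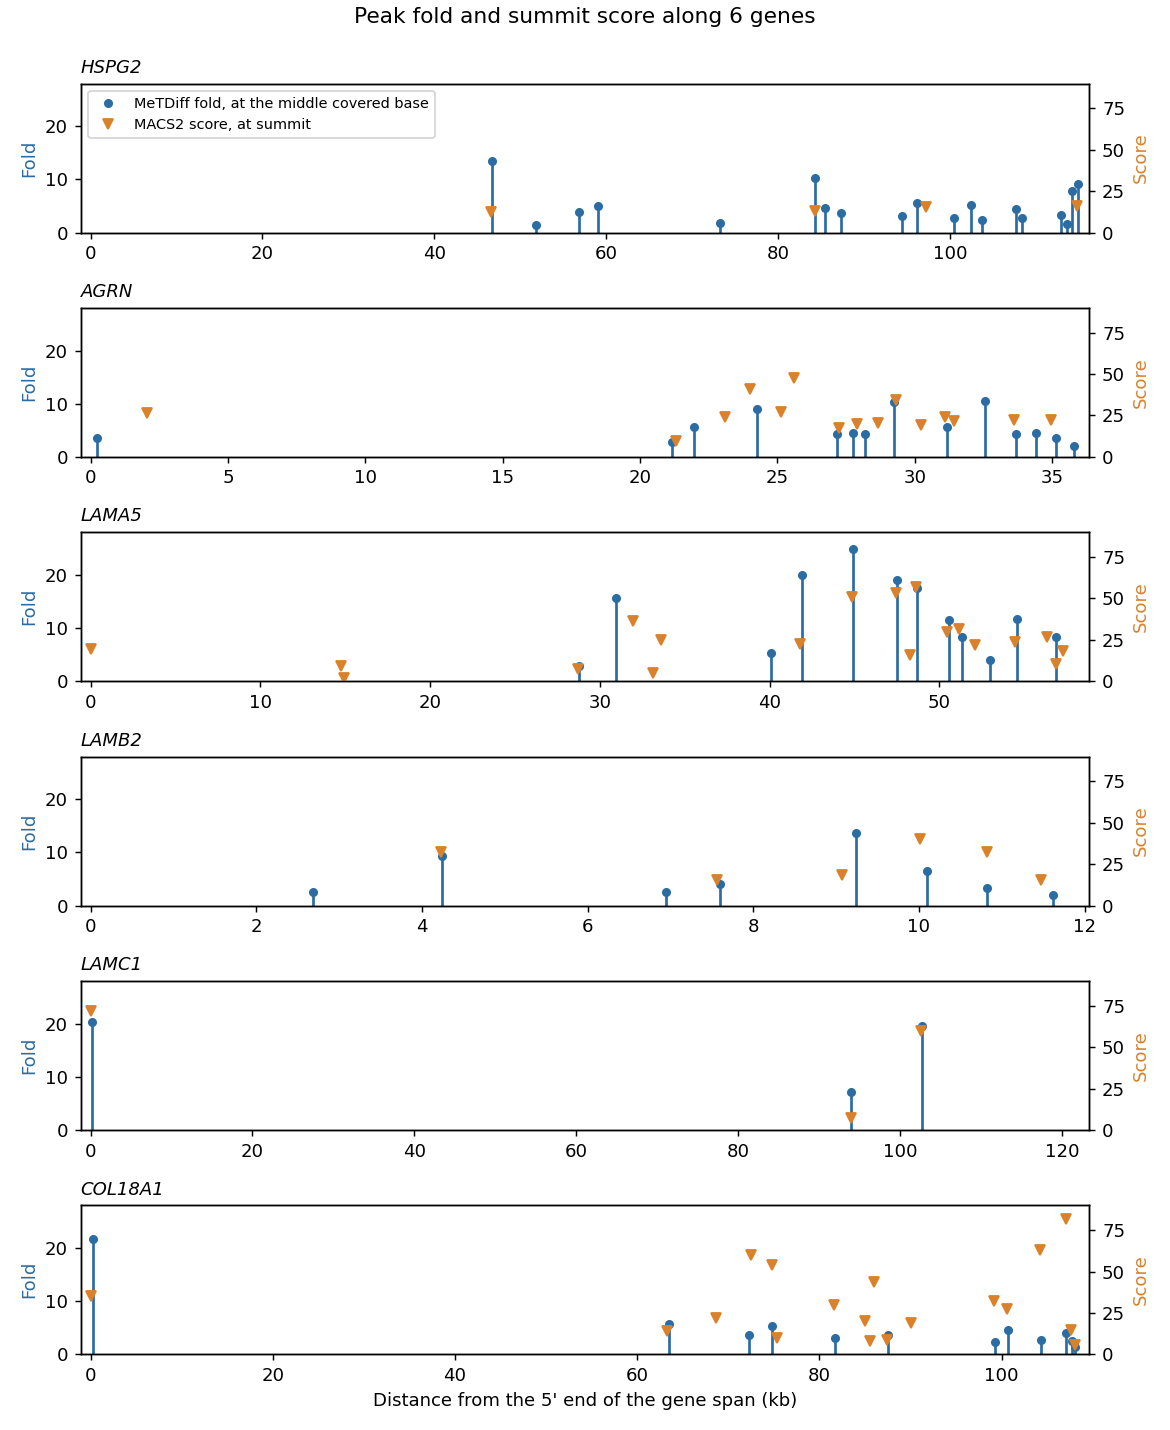
Fold of each MeTDiff peak (blue stems, left axis, placed at the middle base its blocks cover) and score of each MACS2 summit (orange triangles, right axis, −log10) along 6 genes, by distance from the 5′ end of the gene span in kb. In LAMA5 the peaks of 24.8, 19.0 and 17.6-fold stand with summits above 50 and that of 20-fold with a summit of 22.6, and LAMC1 has its strongest values at the start and at its last peak.

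Of the beta chains, LAMB2 had many peaks and LAMB1 few. LAMB2 (chromosome 3, 49121114 to 49133050, minus strand) had 8 peaks in a span of 11937 bp, 6.70 per 10 kb, the densest of the 10 genes. Folds were 2.47, 9.24, 2.50, 4.04, 13.7, 6.43, 3.30 and 2.04 from the 5′ to the 3′ end, with FDR values from 3.63e-05 to 0.0468. The 6 summits scored 32.4, 15.2, 18.6, 40.4, 32.4 and 15.5, and the highest (49123041) lay inside the 6.43-fold peak, next to that of 13.7-fold. LAMB1 (chromosome 7, 107923799 to 108003161, minus strand) had a single peak of 8.0-fold (107940109 to 107940408, FDR 0.00302) with its only summit inside (107940387, score 14.3).

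LAMC1, the gamma chain that pairs with most alpha and beta chains, had few but strong peaks. It lies on the plus strand of chromosome 1 (183023420 to 183145592). Folds were 20.3, 7.11 and 19.6, and each peak had a summit inside or near it, with scores of 71.8, 7.35 and 60. The first peak (183023470 to 183023820, FDR 2.34e-05) was unspliced and began 50 bp from the annotated start, with its summit at 183023537. The last (183125482 to 183126251, FDR 2.45e-09) joined 2 blocks, and its summit (183126041) lay 79 bp outside them. A score of 71.8 or more was reached in 45 protein-coding genes.

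Nidogen 1 and the type IV collagen genes had at most 1 counted peak each. Of all protein-coding genes 37.5% held any peak, and 4116 of the 8386 identifiers in the MeTDiff list had only 1. NID1 (chromosome 1, 235975830 to 236065090, minus strand) had a peak of 1.91-fold inside the span (236038127 to 236038226) and a second, of 4.83-fold, that crossed its 5′ edge (236064960 to 236065109) and so was not counted among the 81. Both had an FDR of 4.37e-04. COL4A2 (chromosome 13, 110307284 to 110513209, plus strand) had a single peak of 3.0-fold in 3 short blocks covering 101 bp (110438015 to 110439815, FDR 1.95e-04). COL4A1 (chromosome 13, 110148963 to 110307157, minus strand) had 0 peaks and 0 summits. The files hold no expression values, so 0 peaks does not separate a transcript without m1G from a scarce one.

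Few of the 81 peaks had their midpoint at a gene start, and the callers differed at some starts. This is a share of peaks, and most peaks are in genes with many. The share of gene starts with a peak was not counted over all genes. By midpoint, 1 of the 81 peaks lay within 500 bp of the 5′ end (1.23%), that of LAMC1, and 6 within 500 bp of the 3′ end (7.41%). Of those 6, 4 were on the gene's own strand. Over the peaks of identifiers touching a single protein-coding span, the shares were 15.2% and 7.08%. The rules differ: these wider shares also take peaks crossing or beyond the edge of the span, each placed by its own strand. The 81 leave out peaks that cross the edge, that at the NID1 start among them, and include 9 peaks of the opposite strand. The 21.7-fold peak of COL18A1 also begins at the annotated start, but its blocks, 45405165 to 45405241, 45405379 to 45405473 and 45455522 to 45455549, span 2 annotated start sites 50357 bp apart, so its midpoint falls in between. The third block begins at the base where the second transcript start is annotated. In LAMA5 the summit of 19.2 (62367271) lay 41 bp from the start, while the nearest MeTDiff block was 28676 bp away. Counting any block within 500 bp of the end gave 3 peaks at the 5′ end, those of LAMC1, COL18A1 and AGRN. The NID1 peak that crosses the edge, not among the 81, also covers an annotated start.

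The transcribed bases at these starts are shown because they are the stretches of annotated sequence that these 5′ signals touch or adjoin. They come from the RefSeq promoter table (GRCh38.p14), which matched 9 of the 10 genes, all but AGRN. Each is written 5′ to 3′ on the transcribed strand with guanines, the base that m1G modifies, in capitals. At most 30 bases are given.
LAMC1 bases 21 to 50, the last before the 20.3-fold peak (chr1:183023440-183023469, plus strand): aaGtcGGGGGtcGGcGcGGaGtGcaGGctG
COL18A1 bases 1 to 30 of the first start, inside the 21.7-fold peak (chr21:45405165-45405194, plus strand): GGtccGaGcGGGtGcaccGcGGcGGaGGaG
COL18A1 bases 1 to 28 of the second start, the last block of that peak (chr21:45455522-45455549, plus strand): actGccccGatGGctccctacccctGtG
LAMA5 bases 21 to 50, around the summit of 19.2 at base 42 (chr20:62367263-62367292, minus strand): GcGcGcGctGtccctGGaGctcGGGGacGc
NID1 bases 1 to 30, inside the 4.83-fold peak (chr1:236065061-236065090, minus strand): aGttcGGGaacatGttGGcctcGaGcaGcc

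Guanines made up 16 of the 30 bases in LAMC1, 16 of 30 at the first COL18A1 start, 13 of 30 in LAMA5, 10 of 30 in NID1 and 6 of 28 at the second COL18A1 start. Over all 35116 start sites of the table the first 30 transcribed bases held a median of 9 guanines, with quartiles of 7 and 12. LAMC1, LAMA5 and the first COL18A1 start were thus above the upper quartile, although the LAMC1 and LAMA5 stretches begin at base 21 and are not the same window. Neither list resolves a single base, so which guanine carried m1G, if any, was not measured.

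Most peaks lay towards the 3′ end of the genomic span. With each span divided into 3 equal parts, 6 peak midpoints fell in the part nearest the 5′ end, 14 in the middle and 61 in the part nearest the 3′ end (75.3%). The shares were 33.3%, 19.5% and 47.1% over the peaks of identifiers touching a single protein-coding span, counted by the wider rule given above. The 61 include all 9 peaks of the opposite strand. Summits were placed like the peaks, with 6, 11 and 49 in these parts. In HSPG2, LAMA5, LAMB1 and COL4A2 the first peak midpoint came 44281, 28841, 62902 and 131631 bp into the span. Position is along genomic DNA with introns included, since transcript models were not used here, so it is not a position along the mRNA.

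Peaks joined several blocks in 51 of 81 cases (63.0%), against 33.1% of all peaks. The peak with the most blocks in the whole MeTDiff list, 12, was in COL18A1 (45488431 to 45495432, 3.57-fold), and AGRN had peaks of 9 and 8 blocks. The median covered length was 200 bp, against 150 bp in the list.

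Every one of the 7 genes with a summit also had a MeTDiff peak, as had 3374 of the 3599 protein-coding genes with a summit. Most summits, however, lay outside the blocks. Of the 66 summits, 24 lay inside a block of a MeTDiff peak (36.4%, Wilson 95% interval 25.8 to 48.4, for counting error only), close to the 37.9% of summits in all protein-coding spans (36.7 to 39.2). Of the other 42, 32 were within 100 bp of a block (76.2%, against 66.6%). Of the 81 peaks, 22 contained a summit (27.2%, against 12.4% of the list), and these had a median fold of 6.77 compared with 3.63 for the 59 without. Over those 22 peaks the fold and the best score inside were weakly correlated (Spearman rho 0.254, Pearson r 0.303). This is a description only, since the points share libraries and genes.

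The rest of the basement membrane system was described with 7 lists of 102 genes, of which 53 had a MeTDiff peak and 34 a summit. The shares of all protein-coding genes were 37.5% and 18.1%. Peaks were counted on either strand. Of the 102, 0 had 8 or more peaks, a number reached by 1.48% of protein-coding genes, the most being 7 in GPC1. Of the 8 other laminin chain genes only LAMC3 had any, with 4 peaks of up to 16.1-fold and 2 summits of up to 41.6. Of the 6 other network collagen and nidogen genes, COL4A5 alone had a peak, of 2.41-fold, and 0 had a summit. The laminin chains with peaks in both lists were LAMA5, LAMB1, LAMB2, LAMC1 and LAMC3.

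Of 20 other matrix proteins of the sheet, 6 had a peak and 5 a summit. COL7A1, the anchoring fibril collagen, reached 12.5-fold, NTN1, a netrin, 11.4-fold, and FBLN1, a laminin-binding fibulin, 11.3-fold with a score of 46.0. Of 19 receptors and surface proteoglycans, 13 had a peak and 9 a summit. Among them DDR1, a collagen receptor kinase, had 15-fold and a score of 54.9, SDC3, a syndecan, 14.1-fold, and GPC1, a glypican, 12.8-fold with 7 peaks and 7 summits.

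Most genes of the heparan sulfate and collagen enzyme lists had a peak. Of all protein-coding genes 37.5% had a peak and 18.1% a summit. Of 20 heparan sulfate enzyme genes 13 had a peak and 6 a summit. XYLT2, which starts the chain on the core protein, reached 42-fold with a score of 52.1. Its fold was above that of every peak in the core protein genes HSPG2, AGRN and COL18A1, whereas COL18A1 had 4 summits of higher score. B4GALT7, which adds the next sugar, reached 30.2-fold and NDST2, a sulfotransferase, 28.8-fold, while B3GALT6 had a score of 24.8. Of 14 collagen folding and crosslinking enzymes 11 had a peak and 7 a summit, with 14.6-fold in the glycosyltransferase gene COLGALT1, 11.3-fold in SERPINH1, a collagen chaperone gene with a score of 47.9, 9.0-fold in PLOD3 and a score of 46.5 in P4HB. Of 15 proteases and inhibitors 8 had a peak and 6 a summit, with 16.0-fold in BMP1, 12.3-fold in the membrane metalloprotease gene MMP14 (score 47.6), 10.2-fold in MMP15 and a score of 36.5 in TIMP2.

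**Figure D5:**
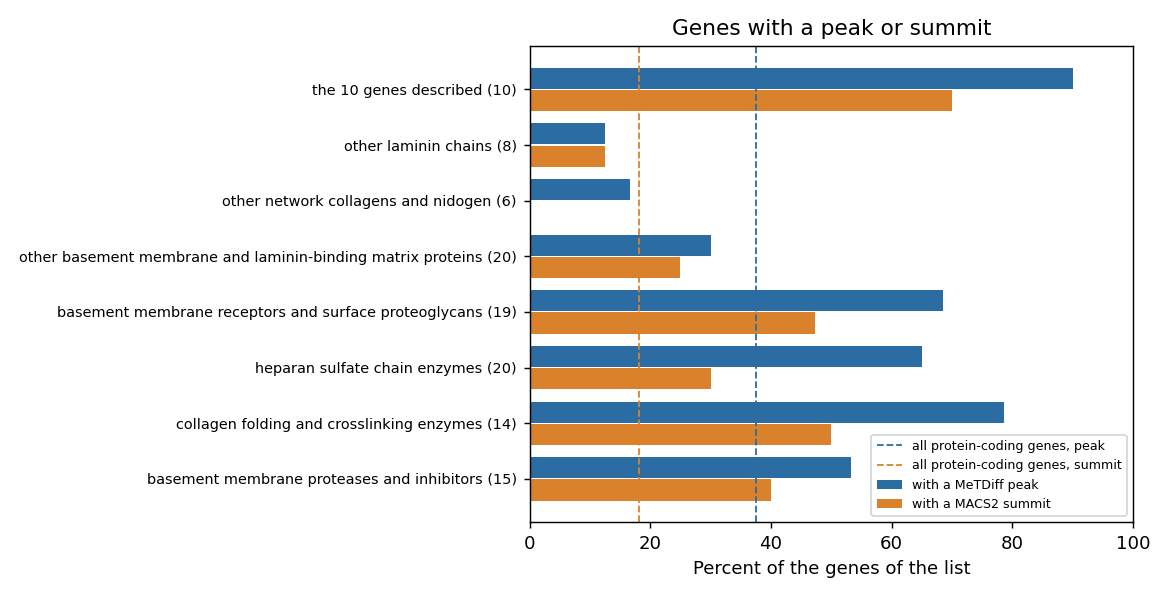
Percent of the genes of each list with a MeTDiff peak (blue) or a MACS2 summit (orange), with the number of genes in parentheses; dashed lines are the shares of all protein-coding genes, 37.5% and 18.1%. Other laminin chains and network collagens lie below both lines, and the 10 genes described, chosen with these results known, lie above them.

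For cell identity, 6 of 7 ductal and epithelial markers had a peak, all but KRT7, and 4 had a summit, KRT8 and KRT18 among them. By contrast, 0 of 5 endothelial, 0 of 5 acinar and 0 of 5 islet markers had either. These short lists compare with 37.5% of all protein-coding genes for a peak and 18.1% for a summit. Of 10 fibroblast markers 3 had a peak, COL1A1, COL3A1 and THY1, and 2 a summit, COL1A1 and COL3A1. DCN, LUM, FAP, PDGFRA, PDGFRB, COL1A2 and ACTA2 had 0 peaks, so the share with a peak was near that of all genes. COL1A1 had 9 peaks, the most of the markers listed, and COL3A1 had 4 of up to 12.1-fold, with 3 summits of up to 45.8. The part of cell type in the counts was not tested. For comparison, the integrin family was picked after the peak lists had been seen. Of 26 integrin subunit genes, the receptors of laminin among them, 9 had a peak and 7 a summit, with at most 5 peaks in a gene. The integrin share with a peak was thus also near the 37.5% of all genes.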

How the data were processed

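Per the submitters' processing notes, the build was GRCh38 and the tools named include STAR 2.7.1 and MACS2 2.2.5. Settings and how libraries were pooled: not given in the sources used here. The deposited MACS2 list holds 1 bp summits, each with a score read here as the −log10 of its p-value or q-value; which is not stated. The deposited MeTDiff list holds a p-value, the log10 of the FDR and a fold, the ratio of precipitated to input signal, for every peak. Column meanings were inferred from the values, since the files have no header.

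Coordinates were made 1-based and set against RefSeq gene spans (GRCh38.p14) with Python 3.11.15 and pandas 2.3.3. A gene's own identifier was that with most peaks on its strand. Strand came from the RefSeq promoter table, or for AGRN from the MeTDiff rows. Overlap used the bases of blocks, not introns, and was checked on a few made-up intervals. Alternatives changed the span rule, strand, fold, FDR and score minimums, end window and overlap rule. Exon and UTR assignment was not made, and some items are not reported here.

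The members and gene lists were chosen with earlier results of these data known. Named genes were the 10 members, neighbours whose span holds a member's peak, and in each related list up to 3 genes by fold and 2 by score. Other genes (markers, microRNAs) were named after their values were seen.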

Additional observations from a re-analysis of the deposited data

How the results depend on the processing

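Of 69 recomputed values, 61 stayed within 1.5 times the reported count or inside the 95% interval of the reported median or share. Every value from leaving out 1 gene was among these 61. For the total counts this was fixed in advance, because no gene holds enough of them to pass that limit. The fewest left were 58 of 81 peaks, without HSPG2, and 47 of 66 summits, without LAMA5. Keeping only peaks of at least 4-fold left 44 of the 81 peaks and 2 of the 6 within 500 bp of the 3′ end. With a window of 1000 bp that count was 12, and without peaks overlapping a peak of another identifier it was 1. At the 5′ end the count of 1 became 2 with peaks crossing the edge of the span and 3 when any block within 500 bp counted. The 24 summits inside blocks became 48 with introns of the peak included and 56 within 100 bp of a block. The settings by any block and by another identifier were chosen after seeing the data, as were those keeping only a gene's own identifier, taking the median over genes, or leaving out each gene with 8 or more peaks. The median fold, 4.27, lay between 3.95 and 4.67 in the settings that recomputed it. No paired analysis was possible because the lists carry no samples, and for that reason no replicate could be left out. Depth is unknown.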

Other observations

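The inner blocks of spliced COL18A1 peaks, those that are neither first nor last in a peak, were often a multiple of 9 bp long. Of 20 such blocks, 11 had a length divisible by 9 bp (55.0%), namely 27, 36, 54, 63, 72 or 90 bp, and 18 were divisible by 3. Over all peaks 324 of 1869 inner blocks were divisible by 9 (17.3%), while HSPG2 had 0 of 8, LAMA5 0 of 6 and AGRN 5 of 16. As background, a collagen helix repeats Gly-X-Y triplets, and its exons are often whole multiples of such a triplet. The single COL4A2 inner block was 51 bp long. The count was made after the block lengths had been seen, and no test was run.

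The starts of COL4A1 and COL4A2 face away from each other 127 bp apart, and 0 MeTDiff blocks lay within 3 kb of either. MIR6815, a microRNA gene inside COL18A1 (chromosome 21, 45478266 to 45478326), ended at the base before a block of the 5.32-fold peak, and 0 peaks covered it. MIR4758, inside LAMA5, was 2678 bp from the nearest block and 1145 bp from the nearest summit.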
